A study of Mus musculus with 20 samples.

Results

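The peaks described here lie in a stretch of mouse chromosome 7 around Idh2, the gene of the mitochondrial isocitrate dehydrogenase. A peak belonged to the stretch if its centre lay between 63 and 90.2 Mb in mm10, which gave 1443 of the 125343 peaks in the series. Of these, 1420 passed the filter on low counts and were tested, as were 123908 peaks in all. Open chromatin was mapped with ATAC-seq, where a transposase inserts adapters into accessible DNA. The cells were LSK cells (lineage-negative, Sca1-positive, Kit-positive bone marrow cells that include the blood stem cells). There were 4 libraries per genotype, each from a separate pool of 2 mice aged 3 to 4 months, and the strain label is C57Bl/6J throughout. WT mice were +/+;Vav-Cre, so they carried the recombinase without a mutant allele. The Idh1 R132H mice were Idh1LSL-R132H/+;Vav-Cre, the Idh2 R140Q mice Idh2LSL-R140Q/+;Vav-Cre and the Idh2 R172K mice Idh2LSL-R172K/+;Vav-Cre. In these alleles a stop cassette is removed by Cre, whose Vav promoter is active in blood cells. Tet2 knockout mice were Tet2-/- and their label names no Cre. The sources used here do not name the strain in which the alleles were made. Whether DNA near the targeted Idh2 gene differs in sequence between the genotypes was not tested.

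Idh2 converts isocitrate to 2-oxoglutarate. The R140Q and R172K mutant enzymes, like Idh1 R132H, make 2-hydroxyglutarate, which inhibits dioxygenases that use 2-oxoglutarate, including the Tet enzymes that oxidize 5-methylcytosine. A mutant allele also brings with it the chromosomal DNA that surrounds the targeted gene, and this DNA is passed on together with the mutation until recombination separates them. The stretch around Idh2 is therefore shared by position between the R140Q and R172K mice, whereas the Idh1 gene lies on chromosome 1 and Tet2 on chromosome 3.

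Promoters of 4 genes with a called peak are shown, since promoters are the regions of the stretch whose sequence was used here, although most called peaks were intronic or intergenic. They are written 5' to 3' on the strand of the gene, as windows of 300 bases at the RefSeq start (GRCm38.p6), with every CpG in capitals, because CpG is the site of DNA methylation. Hapln3 (chr7:79130969-79131268, minus strand) held the only promoter-class peak called in Idh2 R140Q. Idh2 itself (chr7:80115301-80115600, minus strand) and Sema4b (chr7:80198338-80198637, plus strand) were more open in Idh2 R172K. Sh3gl3 (chr7:82174546-82174845, plus strand) had the lowered promoter peak with the smallest p in Idh2 R172K.
Hapln3: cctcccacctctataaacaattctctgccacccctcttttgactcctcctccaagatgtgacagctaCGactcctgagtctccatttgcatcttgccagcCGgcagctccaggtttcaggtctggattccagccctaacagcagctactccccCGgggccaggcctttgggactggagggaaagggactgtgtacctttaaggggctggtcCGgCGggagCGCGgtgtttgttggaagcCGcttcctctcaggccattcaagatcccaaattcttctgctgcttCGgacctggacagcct
Idh2: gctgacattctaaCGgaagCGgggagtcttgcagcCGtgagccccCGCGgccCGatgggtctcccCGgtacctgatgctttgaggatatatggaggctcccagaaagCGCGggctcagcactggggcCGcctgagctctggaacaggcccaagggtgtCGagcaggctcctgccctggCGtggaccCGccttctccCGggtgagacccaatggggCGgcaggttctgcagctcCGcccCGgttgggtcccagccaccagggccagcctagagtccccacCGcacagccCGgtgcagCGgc
Sema4b: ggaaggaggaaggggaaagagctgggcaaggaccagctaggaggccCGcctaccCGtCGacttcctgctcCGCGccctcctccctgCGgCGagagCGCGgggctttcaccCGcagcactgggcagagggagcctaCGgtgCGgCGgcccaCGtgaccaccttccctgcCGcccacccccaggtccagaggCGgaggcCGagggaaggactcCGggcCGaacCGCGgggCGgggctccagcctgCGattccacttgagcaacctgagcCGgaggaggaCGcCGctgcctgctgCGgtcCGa
Sh3gl3: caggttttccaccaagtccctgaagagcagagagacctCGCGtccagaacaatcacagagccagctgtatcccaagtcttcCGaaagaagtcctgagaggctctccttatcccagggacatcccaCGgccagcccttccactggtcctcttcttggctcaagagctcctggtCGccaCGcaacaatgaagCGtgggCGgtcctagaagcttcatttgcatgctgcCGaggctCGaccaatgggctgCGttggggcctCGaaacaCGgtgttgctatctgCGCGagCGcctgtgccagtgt
The windows held 9, 20, 28 and 16 CpG in this order, against a median of 7 over 32851 RefSeq promoter windows of the same length. Windows inside tested peaks held more: a median of 21 in peaks higher in Idh2 R172K, 9 in lower ones and 21 in those not called. The letters GGGCGG, an Sp1-type box, were found on either strand at 0, 2, 2 and 1 places and occur in 35.7% of all windows. The Ets-type letters CCGGAA occur in 14.9% of all windows and were in none of these 4. The same was so for the Gata-type letters AGATAA, which 11.2% of all windows hold on either strand. It was so too for the Runx-type letters TGTGGT, which 16.8% of all windows hold. So no other searched motif was there to overlap the Sp1-type box.

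The peaks of the stretch were named for 139 genes and had a median width of 502 bp. Promoter-class peaks made up 9.49%, intronic peaks 44.1% and intergenic peaks 39.0%, and the median WT level was 2.43 CPM (counts scaled to a common library size, with TMM factors), from 0.134 to 190.0 CPM. Libraries held 10502052 to 27890340 counts in peaks. Kit and Ly6a (Sca1), which define the gate, and Cd34, Flt3, Gata2 and Mecom, which are active in stem and progenitor cells, all had peaks, 152 in all, summing to 968 to 1070 CPM per library. Of the T cell markers only 1 of 3 genes had peaks (Cd3g and Cd8a had none), of the B cell markers 2 of 3 (Cd79a had none) and of the granulocyte and monocyte markers 3 of 4 (Ly6g had none). Summed T cell peaks held 13.8 to 14.9 CPM in Idh2 R172K and 6.43 to 9.77 in the other genotypes, and erythroid peaks 121 to 126 and 106 to 118 CPM. B cell peaks were at 16.8 to 19.5 CPM in Idh2 R172K and 19.3 to 23.3 in the others, and granulocyte and monocyte peaks at up to 179 and up to 205 CPM. Stroma and endothelium peaks were at 196 to 215 and 179 to 216 CPM in all, with promoter peaks averaging 9.74 to 10.7 CPM in Idh2 R172K and 7.33 to 9.0 in the others. Granulocyte and monocyte promoter peaks averaged 3.81 to 4.54 and 4.85 to 6.12 CPM. The part of these markers in the Idh2 R172K results was not tested. The libraries also split by Xist, the RNA of the inactive X chromosome, into 10 at 16 to 21 CPM and 10 at 3.79 to 4.6 CPM. The high libraries were numbers 3 and 4 of Tet2 knockout and numbers 2 and 4 of every other genotype. The stretch took 1.04% to 1.06% of each library's counts over all genotypes. The Idh2 R140Q mean was 1.05% ± 0.0092 and the WT mean 1.05% ± 0.00872 (SD, n = 4 each; exact permutation test, two-sided, p = 0.743, adjusted p = 0.971 over 4 comparisons with WT). The differences from WT ran from -0.00291 to 0.0022 percentage points over the 4 genotypes, and the smallest p that 4 against 4 libraries allow is 0.0286. Each library is its own pool of mice, so p-values here measure the spread between such pools.

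The first comparison asked which peaks differed between Idh2 R140Q and WT. In Idh2 R140Q 16 of the 1420 tested peaks were called (10 higher, 6 lower; 1.13%). Over all tested peaks 0.0153% were called, 0.00807% higher and 0.00726% lower. A call is an adjusted p under 0.05 by edgeR's quasi-likelihood test with Benjamini-Hochberg adjustment over all tested peaks. Only 3 calls lay elsewhere in the genome, in or near Rab3gap2, Rap1gap2 and Slc38a6, and none among the 5880 tested peaks of the rest of chromosome 7. The borders of the stretch were drawn with such results known, so this contrast is a description. It also holds for the main fit: with a term for replicate number, 14 higher and 22 lower peaks were called over all tested peaks. At an unadjusted p below 0.05 there were 180 peaks (12.7%) in the stretch, 303 (5.15%) in the rest of chromosome 7 and 5.5% over all tested peaks. The 16 calls ran from 63.52 to 81.73 Mb, with 15 of them below Idh2 in coordinate, 10 below 71 Mb and the nearest 0.738 Mb from Idh2. There were 9 intergenic, 6 intronic and 1 promoter-class peak among them. At 15 of the 16, all 4 Idh2 R140Q libraries lay beyond the 12 libraries without an Idh2 allele. The 16 were called on the same Idh2 R140Q and WT libraries, so separation from WT is partly built in. Such separation from the 12 was found at 29 peaks of the stretch (2.04%) and at 0.0807% of all tested peaks. In bulk libraries, fewer cells with an open site and less opening per cell cannot be told apart.

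**Figure D1:**
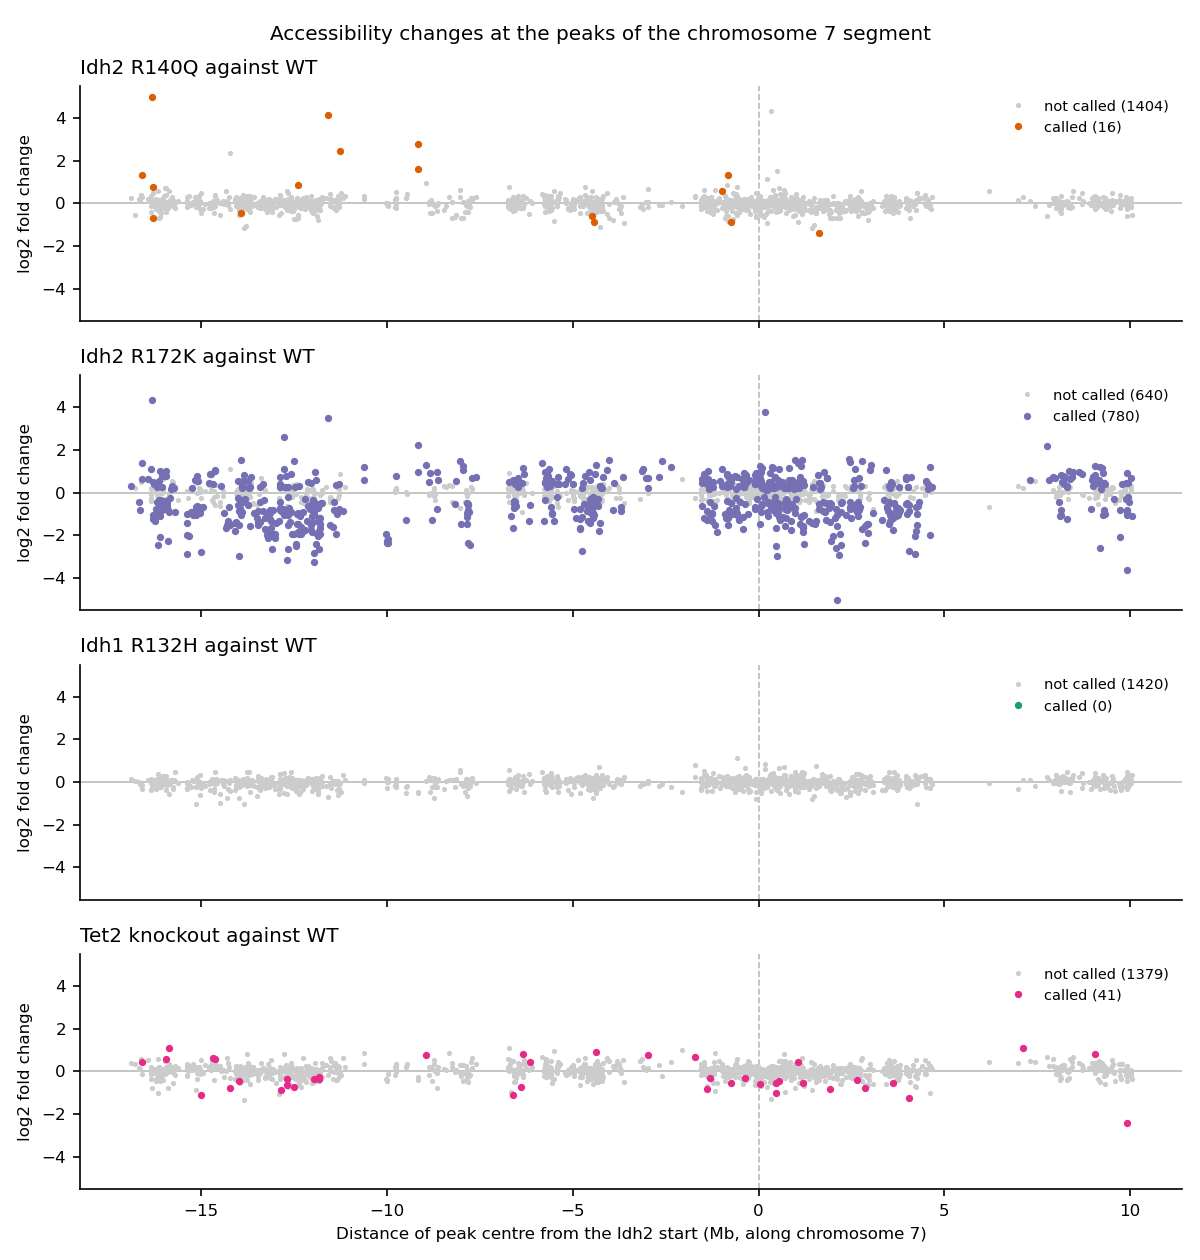
Log2 fold change against WT (vertical axis) of each of the 1420 tested peaks by the distance of its centre from the Idh2 start in Mb (horizontal axis), with 1 panel per genotype and called peaks in colour. Calls numbered 16 in Idh2 R140Q, 780 in Idh2 R172K, 0 in Idh1 R132H and 41 in Tet2 knockout, and the dashed line marks Idh2.

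The largest change lay near Otud7a, which codes for a deubiquitinase, at -16.3 Mb from the Idh2 start. The intergenic peak at chr7:63802730-63803300 was nearly closed in WT, with 0.379, 0.368, 0.526 and 0.205 CPM in the 4 libraries. In Idh2 R140Q it reached 10.5, 11.1, 11.1 and 13.2 CPM and in Idh2 R172K 6.81, 7.11, 6.06 and 9.52 CPM. The highest of the 12 libraries without an Idh2 allele held 0.526 CPM and the lowest of the 8 Idh2 mutant libraries 6.06 CPM, so the groups were far apart. The log2 fold change against WT was 4.99 ± 0.19 (SE, adjusted p = 1.72e-22) in Idh2 R140Q and 4.34 ± 0.20 (adjusted p = 7.98e-21) in Idh2 R172K. Idh1 R132H (0.309 ± 0.106 CPM) and Tet2 knockout (0.203 ± 0.0675 CPM, SD, n = 4 each) were not called. The WT value rests on 32 counts over 4 libraries.

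The neighbouring Otud7a peaks did not all move in this direction. At chr7:63816034-63817157 the level was 7.57 to 8.48 CPM in WT, 11.3 to 15.6 in Idh2 R140Q and 9.85 to 11.8 in Idh2 R172K, with log2 fold changes of 0.77 ± 0.10 and 0.48 ± 0.10 (SE). At chr7:63821887-63822514 the Idh2 mutants were lower, with 6.30 to 9.10 CPM in WT, 4.29 to 5.49 in Idh2 R140Q and 3.31 to 4.09 in Idh2 R172K. All 8 Idh2 mutant libraries lay beyond all 12 others at these sites. An intronic Otud7a peak at chr7:63516034-63516615 rose as well, from 1.27 ± 0.472 CPM in WT to 3.03 ± 1.00 in Idh2 R140Q and 3.19 ± 0.573 in Idh2 R172K (SD, n = 4 each), but here 1 WT library at 1.97 CPM overlapped the lowest Idh2 R140Q library at 1.90 CPM. Otud7a thus had 3 higher peaks and 1 lower peak among the 16. The call at 63516034 in Idh2 R140Q was lost when only WT and Idh2 R140Q were fitted (adjusted p = 0.0949), and that at 63821887 without Idh2 R140Q replicate 4 or WT replicate 1 (adjusted p up to 0.102).

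A second site that was nearly closed without an Idh2 allele lay 153685 bp from Fam169b, at chr7:68516546-68517002. WT libraries held 0.114, 0.123, 0.394 and 0.041 CPM, from 1 to 6 counts each, while Idh2 R140Q libraries held 2.72, 2.44, 3.09 and 2.12 CPM. In Idh2 R172K the values were 1.42, 2.14, 1.70 and 1.80 CPM. The groups did not overlap, and Idh1 R132H and Tet2 knockout stayed at 0 to 0.348 CPM. The fitted log2 fold changes against WT were 4.12 ± 0.35 (SE, adjusted p = 7.33e-10) in Idh2 R140Q and 3.51 ± 0.38 (adjusted p = 4.10e-10) in Idh2 R172K. A pair of intergenic peaks whose nearest named gene is the predicted gene Gm44812 showed the same order of genotypes. At chr7:70946200-70946585 the means were 0.362 ± 0.113 CPM in WT, 2.41 ± 0.0842 in Idh2 R140Q and 1.57 ± 0.293 in Idh2 R172K. At chr7:70948282-70949154 they were 1.03 ± 0.468, 3.00 ± 0.965 and 1.89 ± 0.211 CPM (SD, n = 4 each), again with all 8 Idh2 mutant libraries above all 12 others. The Idh2 R140Q call at 70948282 was lost when only WT and Idh2 R140Q were fitted (adjusted p = 0.122).

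The 6 lowered peaks had WT means from 1.91 to 30.0 CPM. Akap13, which codes for a scaffold of protein kinase A, had 2 of them in introns. At chr7:75699643-75700344 the WT libraries held 13.0, 13.1, 11.2 and 13.4 CPM, the Idh2 R140Q libraries 6.70, 6.30, 7.29 and 7.11 and the Idh2 R172K libraries 5.85, 5.75, 6.73 and 6.36. Idh1 R132H and Tet2 knockout libraries lay between 10.1 and 12.8 CPM, above every Idh2 mutant library. The log2 fold changes against WT were -0.89 ± 0.09 (SE, adjusted p = 9.78e-08) in Idh2 R140Q and -1.03 ± 0.09 (adjusted p = 3.30e-12) in Idh2 R172K. At the other Akap13 peak, chr7:75638644-75639220, the changes were -0.58 and -0.61. An intergenic peak 5515 bp from Chsy1, a chondroitin synthase gene, at chr7:66178987-66179639 fell from 30.0 ± 1.60 CPM in WT to 22.1 ± 1.02 in Idh2 R140Q and 23.6 ± 1.29 in Idh2 R172K (SD, n = 4 each). In Rlbp1, which codes for a retinaldehyde-binding protein of the eye, an intronic peak at chr7:79376733-79377521 went from 2.90 ± 0.352 CPM to 1.60 ± 0.199 and 1.45 ± 0.287 CPM. Rlbp1 was the only one of the 16 that was also called in Tet2 knockout (2.00 ± 0.191 CPM, log2 fold change -0.54 ± 0.15, adjusted p = 0.0388), and its call in Idh2 R140Q (adjusted p = 0.0222) was lost in 6 of the alternative fits, with an adjusted p of up to 0.263.

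The remaining 5 called peaks were those where Idh2 R172K did not follow Idh2 R140Q against both WT and Tet2 knockout. An intronic peak of Ttc23, which codes for a tetratricopeptide repeat protein, at chr7:67716367-67717268 went in opposite directions. It held 3.22 to 4.34 CPM in WT, 5.53 to 8.48 in Idh2 R140Q (log2 fold change 0.87 ± 0.14 SE, adjusted p = 0.00184) and 1.35 to 2.39 in Idh2 R172K (-0.97 ± 0.17, adjusted p = 8.36e-06). The 4 Idh2 R140Q libraries all lay above and the 4 Idh2 R172K libraries all below the WT range. An intronic peak of Abhd2, a hydrolase gene, at chr7:79303499-79304179 was at 2.37 to 3.18 CPM in Idh2 R140Q and at 0.539 to 1.54 CPM in all 16 other libraries. The Arrdc4 peak at chr7:68844179-68844447, near a gene of the arrestin family, was at 1.16 to 1.94 CPM in Idh2 R140Q, 0.0818 to 0.591 in WT and 0.333 to 0.654 in Idh2 R172K, where the change against WT was not called (0.86 ± 0.40, adjusted p = 0.0661). At these 3 sites the gain was thus an Idh2 R140Q measurement that Idh2 R172K did not repeat at its size.

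The promoter peak of Hapln3, a gene for a link protein of the hyaluronan matrix, at chr7:79129984-79131922 held 6.94, 7.45, 7.56 and 6.07 CPM in WT and 10.6, 10.2, 10.1 and 10.6 CPM in Idh2 R140Q. Its Idh2 R172K libraries held 8.31, 9.74, 7.50 and 10.2 CPM and overlapped the WT range and the Tet2 knockout range of 7.35 to 8.65 CPM. The change was 0.58 ± 0.10 (SE, adjusted p = 0.00813) in Idh2 R140Q and 0.33 ± 0.10 (adjusted p = 0.00661) in Idh2 R172K, and 0.14 ± 0.10 for Idh2 R172K minus Tet2 knockout (adjusted p = 0.269). The Homer2 peak at chr7:81732200-81732912, near a gene of a synaptic scaffold protein, was the only called peak above Idh2 in coordinate. It fell from 1.91 ± 0.358 CPM in WT to 0.749 ± 0.0785 in Idh2 R140Q and 1.29 ± 0.273 in Idh2 R172K (SD, n = 4 each). The Hapln3 call in Idh2 R140Q was lost in 3 and the Homer2 call in Idh2 R172K in 3 of the alternative fits.

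**Figure D2:**
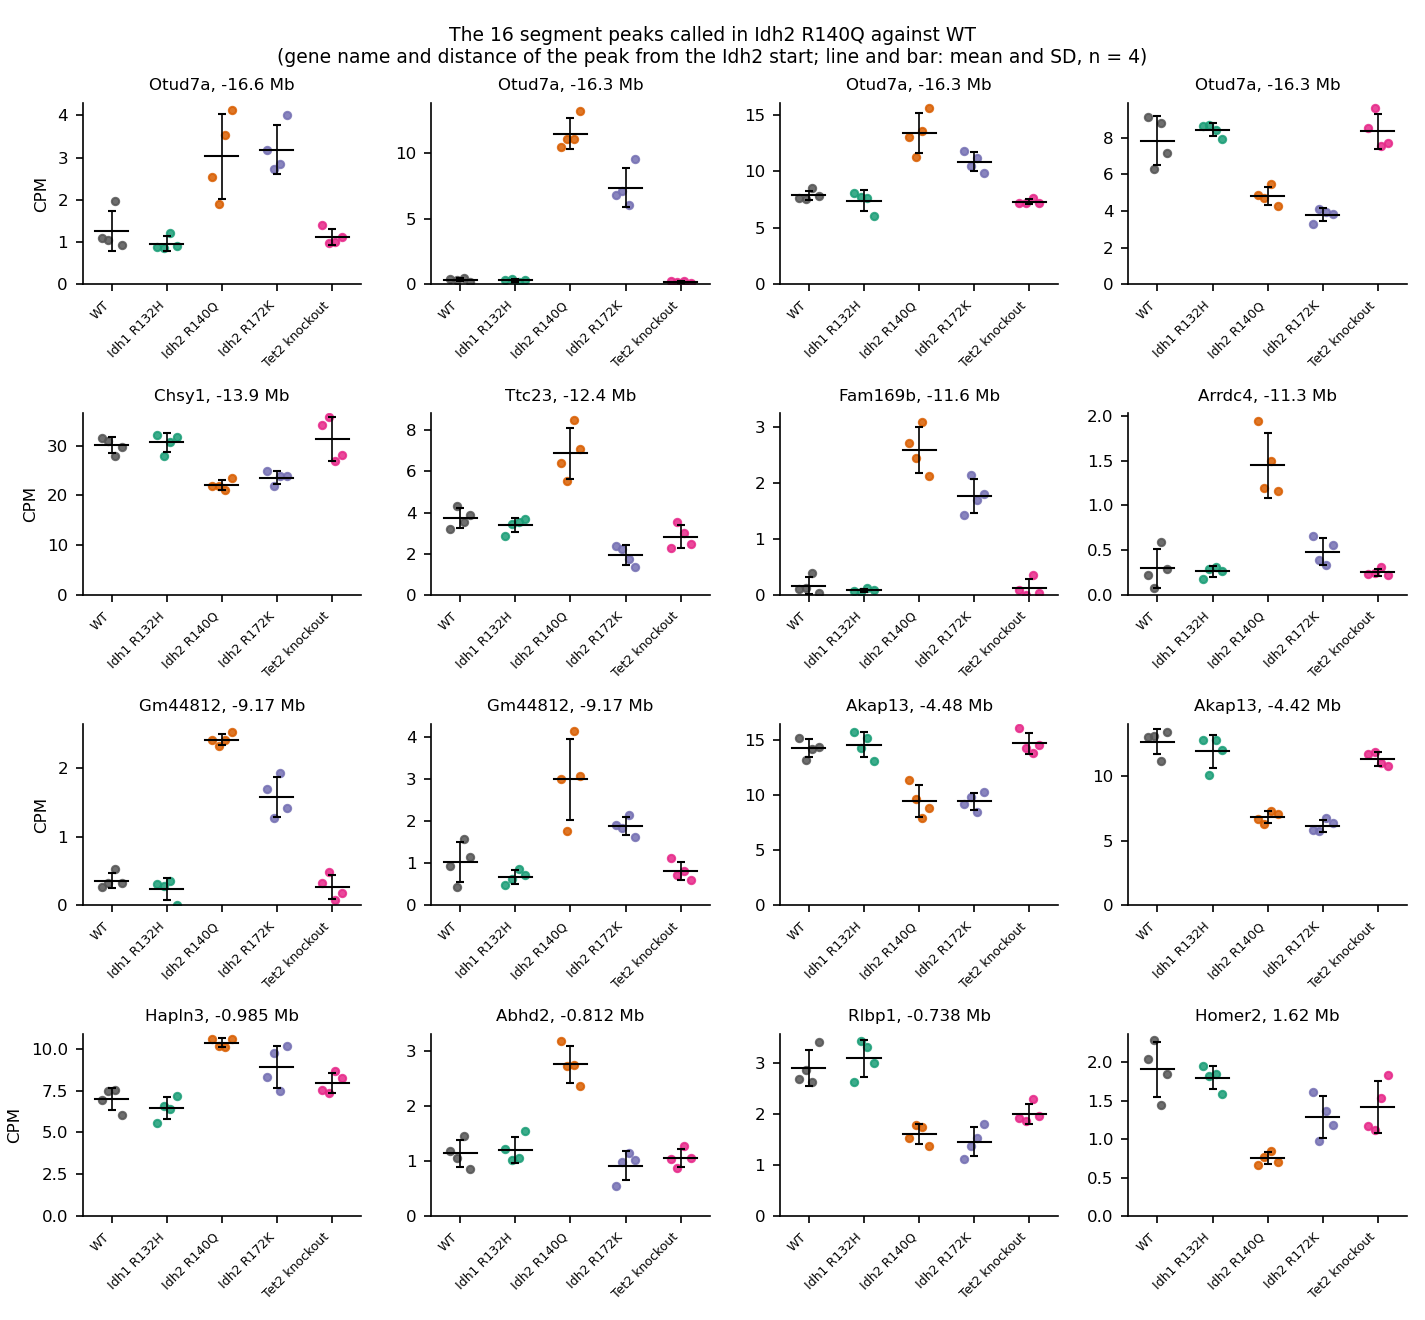
Accessibility in CPM (vertical axis) of the 16 peaks called in Idh2 R140Q against WT, in every library, by genotype (horizontal axis), with mean and SD (n = 4) in black and the distance from the Idh2 start above each panel. In 10 of the 16 panels all 8 Idh2 mutant libraries lie beyond all 12 others, as at the Otud7a peak with 0.37 CPM in WT and 11.5 CPM in Idh2 R140Q.

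The next question was which changes the R140Q and R172K alleles share and the genotypes without an Idh2 allele lack. Comparisons with WT share the WT libraries, so Idh2 R140Q was set against Idh1 R132H and Idh2 R172K against Tet2 knockout, which have no library in common. Calls numbered 17 in the stretch for Idh2 R140Q minus Idh1 R132H (10 higher, 7 lower; over all tested peaks 0.0412%, 0.0266% higher and 0.0145% lower) and 669 for Idh2 R172K minus Tet2 knockout (271 higher, 398 lower; over all tested peaks 44.3%, 20.1% higher and 24.1% lower). In both comparisons and in the same direction 11 peaks were called, 6 higher and 5 lower, which is 0.775% of the tested peaks of the stretch and compares with 0.0145% of all tested peaks. All 11 were among the 16 peaks called in Idh2 R140Q against WT: the 4 of Otud7a, the 2 near Gm44812, the 2 of Akap13 and those near Fam169b and Chsy1 and in Rlbp1. Both sets use the same Idh2 R140Q libraries, so this overlap is no separate support. The 11 peaks lay from 63.52 Mb to Rlbp1, all below Idh2. Crossing the genotypes the other way (Idh2 R140Q with Tet2 knockout, Idh2 R172K with Idh1 R132H) called 16 peaks of the stretch and 0.0678% of all tested peaks, with 10 of the 11 among them. Elsewhere in the genome 7 of 122488 tested peaks met the same rule, none of them on chromosome 7. Among them were peaks of Prim2, Prss39 and Slc4a3 on chromosome 1, Iqgap2 on 13, Esf1 on 2 and Ttyh3 on 5, and at these the Idh2 R140Q minus Idh1 R132H log2 fold changes lay between -0.81 and 0.73. In the stretch the same values ran from -0.94 to 5.22. None of the named peaks outside it was called in Idh2 R140Q against WT. There the Idh2 R140Q minus WT changes were 0.17 at Prim2, -0.02 at Prss39 and 0.32 at Slc4a3. They were -0.64 at Iqgap2, -0.53 at Esf1 and -0.45 at Ttyh3. Prss39 held 6.43 CPM in WT, 6.37 in Idh2 R140Q, 9.56 in Idh1 R132H, 5.12 in Idh2 R172K and 6.15 in Tet2 knockout. The Idh2 R140Q call there was thus against an Idh1 R132H level above that of WT, with Idh2 R140Q near WT.

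**Figure D3:**
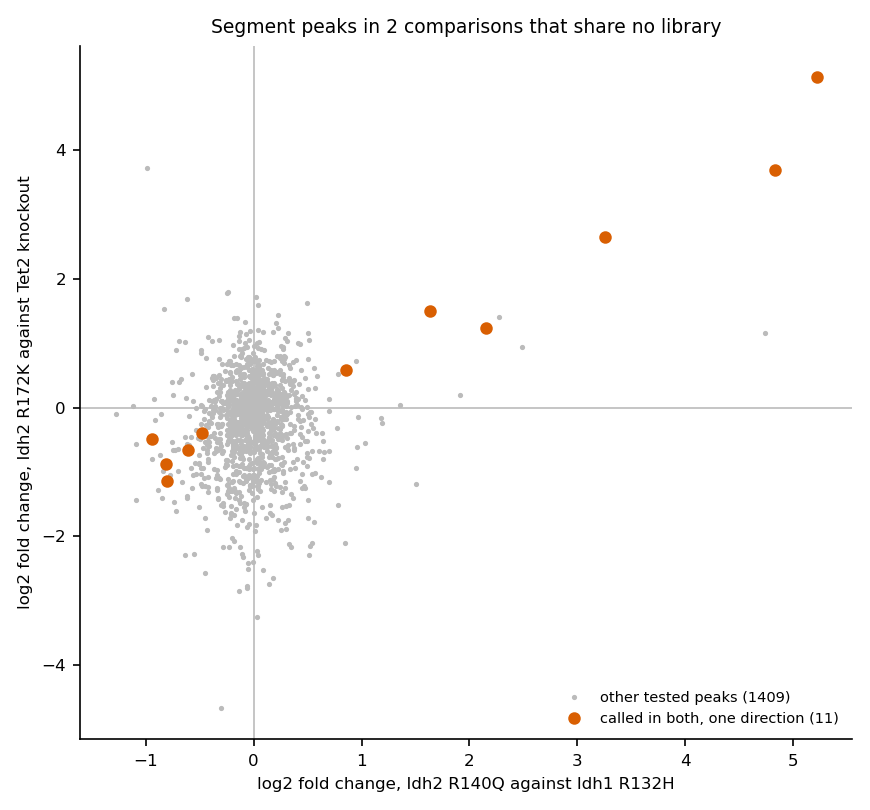
Log2 fold change of Idh2 R140Q against Idh1 R132H (horizontal axis) and of Idh2 R172K against Tet2 knockout (vertical axis) for each tested peak of the stretch, with the 11 peaks called in both and in the same direction in orange. The 6 higher peaks lie at upper right, up to 5.22 and 5.14, and the 5 lower ones at lower left.

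A count without a model was made as well. All 8 libraries with an Idh2 allele lay beyond all 12 without at 19 peaks of the stretch (6 higher, 13 lower; 1.34%), against 0.0307% of all tested peaks. Elsewhere 19 of 122488 peaks met this rule and none of the 5880 in the rest of chromosome 7. Of the 19, 10 were among the 16 called in Idh2 R140Q. The other 9 (8 lower, 1 higher) were not called there, with Idh2 R140Q log2 fold changes of -1.13 to 0.19 and adjusted p from 0.228 to 0.803. They were called in Idh2 R172K, at -2.43 to 0.41, where 53.0% of all tested peaks were called. The rule itself sets the libraries of both Idh2 alleles beyond WT, so these calls and the overlap with the 16 are no separate support. Named after their values were seen, the 9 were peaks of Ttc23, Slco3a1 (2 peaks), Sv2b, Klhl25, Det1, Abhd2, Fanci and Rhcg. In Fanci, a Fanconi anaemia DNA repair gene, the intronic peak at chr7:79421687-79422307 held 1.15 to 2.19 CPM in the Idh2 mutants and 2.37 to 3.51 CPM in the other genotypes. A promoter-class peak of Ttc23 at chr7:67654639-67654934 held 0.0974 to 0.858 CPM against 0.887 to 1.54 CPM. The 19 peaks ran from 63.80 to 79.54 Mb.

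At the 16 peaks Idh1 R132H and Tet2 knockout had 1 call against WT between them. Sites with few counts leave their changes imprecise. The SE was 0.69 for Idh1 R132H near Fam169b and 0.41 for Tet2 knockout at the Otud7a peak at 63802730. Idh1 R132H was called at none of the 16 peaks. Its log2 fold changes were -0.72 to 0.12 at the 10 higher peaks and -0.10 to 0.11 at the 6 lower ones. Tet2 knockout was called at Rlbp1 only, with -0.80 to 0.19 at the higher peaks and -0.54 to 0.09 at the lower ones. Idh2 R172K was called at 14 of the 16, which is to be read beside the 53.0% of all tested peaks called in that genotype. It was called in the direction of Idh2 R140Q at 7 of the 10 higher and all 6 lower peaks, in a comparison that shares the WT libraries. Over all tested peaks 25.1% were called higher and 27.9% lower in Idh2 R172K.

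The shared changes were also set side by side in the 2 alleles. The peaks were chosen for their values in these Idh2 R140Q libraries, which favours a larger change there, so the differences are a description with no test. Of the 6 shared higher peaks, 5 had a smaller change in Idh2 R172K. At the Otud7a peak at 63802730 Idh2 R172K minus Idh2 R140Q was -0.65 ± 0.12 (log2, SE), at that at 63816034 -0.29 ± 0.09, near Fam169b -0.60 ± 0.23 and at the Gm44812 sites -0.56 ± 0.23 and -0.66 ± 0.21. At the intronic Otud7a peak it was 0.08 (95% interval -0.29 to 0.45). Among the 5 shared lower peaks the values ran from -0.37 at the Otud7a peak at 63821887 to 0.11 near Chsy1. The intervals were -0.23 to 0.17 and -0.35 to 0.06 at the Akap13 peaks, -0.05 to 0.26 near Chsy1 and -0.52 to 0.23 at Rlbp1.

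At 3 further peaks, chosen after their values were seen, the Idh2 R140Q libraries differed widely among themselves and the change against WT was not called. An intergenic peak 12767 bp from Blm, a helicase gene, at chr7:80442100-80442352 held 6.42, 6.00, 2.75 and 0.0504 CPM in the 4 Idh2 R140Q libraries. All 16 other libraries lay at 0 to 0.46 CPM, and so did the last Idh2 R140Q library, which had 1 count. The log2 fold change was 4.31 with an adjusted p of 0.266. The intronic peak at chr7:80611814-80612361 in Crtc3, a coactivator of CREB, showed a related order, with 2.58, 2.68, 1.60 and 0.706 CPM in Idh2 R140Q and 0.451 to 1.05 CPM in WT (1.53, adjusted p = 0.378). At the intronic Pcsk6 peak at chr7:65893067-65893354 the values were 0.953, 0.713, 0.15 and 0.908 CPM against 0.0759 to 0.164 CPM in WT (2.34, adjusted p = 0.41). Replicate 4 was thus the low one at Blm and Crtc3 and replicate 3 at Pcsk6.

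The share of changed peaks varied along the stretch. In windows of 3 Mb, the share of peaks with an unadjusted p below 0.05 in Idh2 R140Q was 18.1% of 138 peaks from 63 to 66 Mb, 12.9% of 263 from 66 to 69 Mb and 19.5% of 41 from 69 to 72 Mb. It was 6.77% of 133 peaks from 72 to 75 Mb, 12.2% from 75 to 78 Mb, 15.0% of 320 from 78 to 81 Mb, which holds Idh2, and 13.6% of 228 from 81 to 84 Mb. Beyond that it was 7.5% of 40 and 2.97% of 101 peaks, beside the 5.5% of all tested peaks. Idh1 R132H gave 0.99% to 8.12% in the same windows. No Idh2 R140Q peak was called in the 2 Mb on the lower outer side of the stretch (13 peaks, log2 fold changes of -0.42 to 0.55) or on the upper outer side (47 peaks, -0.64 to 0.44). Inside it, 4 of 97 were called in its lowest 2 Mb and 0 of 105 in its highest. Because the borders were drawn with such results known, these counts cannot show where the changes end.

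**Figure D4:**
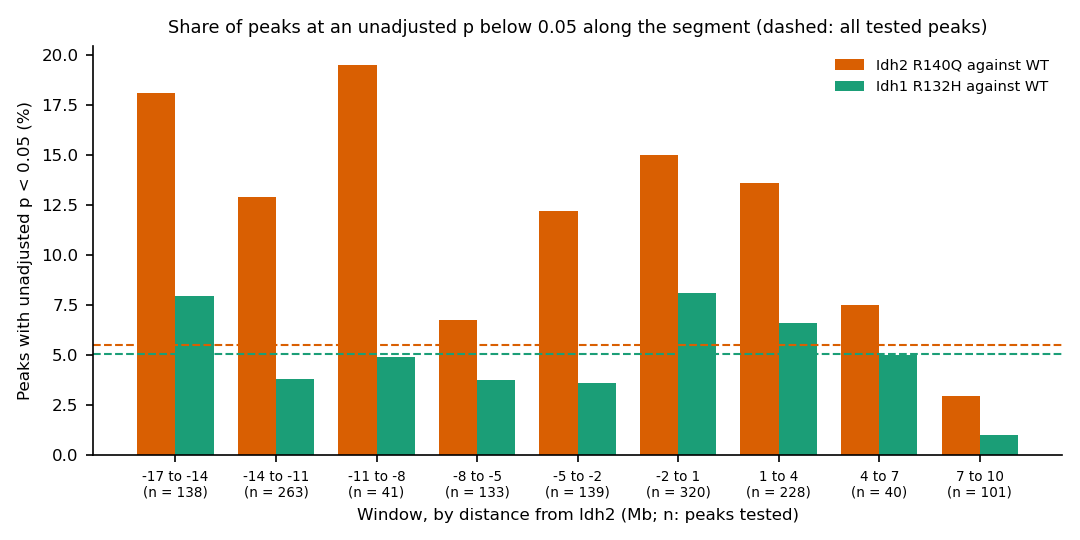
Percent of tested peaks with an unadjusted p below 0.05 against WT (vertical axis) in windows of 3 Mb ordered by distance from Idh2 (horizontal axis, with the number of peaks), for Idh2 R140Q and Idh1 R132H, with the share over all tested peaks as dashed lines (5.5% and 5.07%). The Idh2 R140Q bars reach 19.5%, and the last one is at 2.97%. The window with under 20 peaks is left out.

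Idh2's own peaks were not among the 16. Of the 8 peaks named for Idh2, 7 were higher in Idh2 R172K than in WT, where 25.1% of all tested peaks were higher, and none was called in Idh2 R140Q (lowest adjusted p = 0.917 by edgeR, 0 of 8 at an unadjusted p below 0.05 and 0 calls by DESeq2). The peak over the Idh2 start, chr7:80114288-80115707, which the deposited annotation classes as intronic, covers the promoter printed above. It held 49.8, 52.3, 50.5 and 54.9 CPM in Idh2 R140Q, inside or just above the WT range of 47.7 to 53.8 CPM. In Idh2 R172K it held 89.7, 85.3, 88.8 and 87.4 CPM, above every other library. A peak 25142 bp upstream of the gene, chr7:80143134-80144366, had 36.9 to 44.7 CPM in WT, 40.2 to 43.6 in Idh2 R140Q and 60.3 to 68.3 in Idh2 R172K. The largest Idh2 R172K change, 1.26 ± 0.17 (SE, adjusted p = 7.82e-08), was at chr7:80146151-80146377, where Idh2 R140Q libraries ran from 1.46 to 3.74 CPM and WT libraries from 1.84 to 2.66. The Idh2 peak that was not called in Idh2 R172K, chr7:80098545-80098786, held only 36 to 63 counts per genotype.

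**Figure D5:**
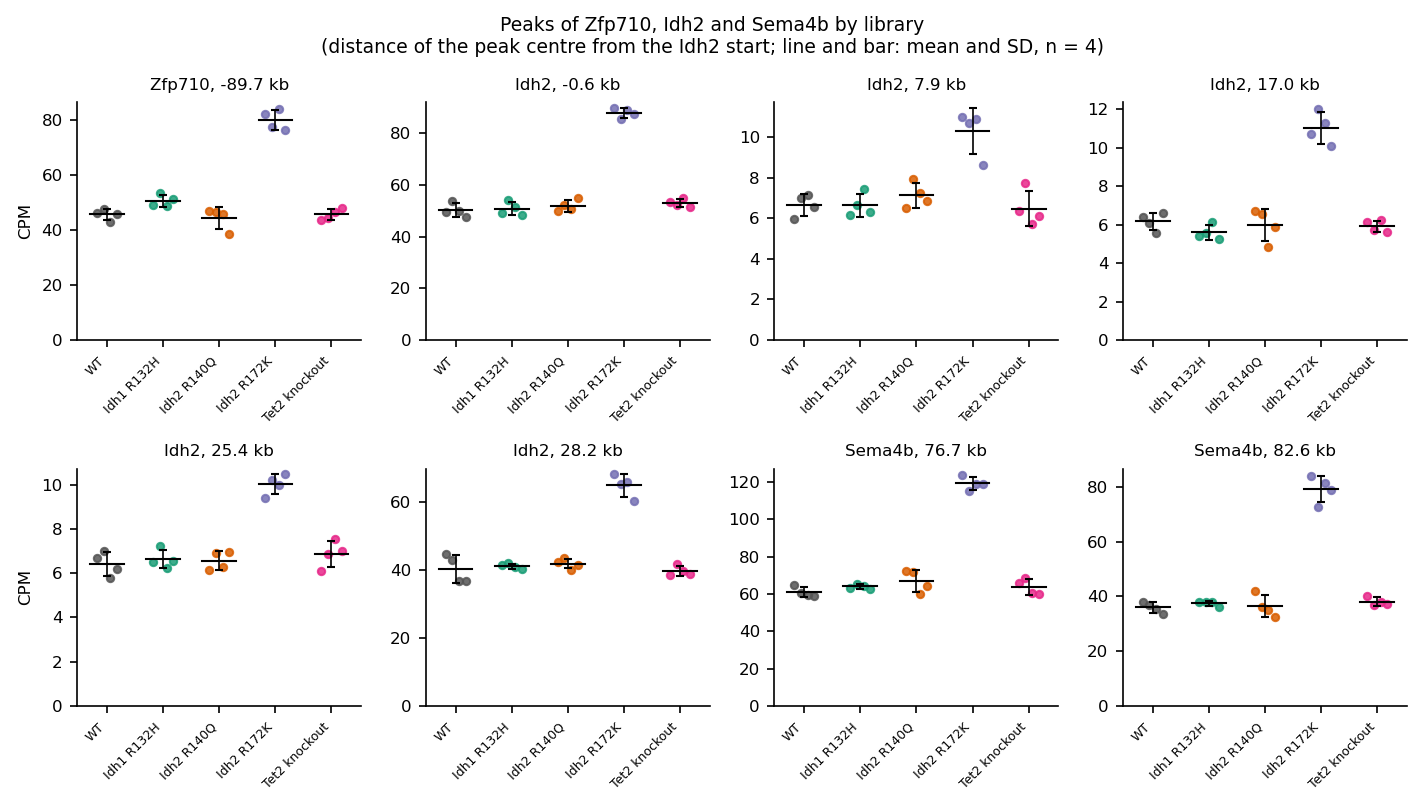
Accessibility in CPM (vertical axis) of the Zfp710 peak, the 5 Idh2 peaks above 5 CPM in WT and the 2 Sema4b peaks, in every library by genotype (horizontal axis), with mean and SD (n = 4) in black. In each panel the 4 Idh2 R172K libraries stand above the 16 others, as at the Idh2 start with 87.8 CPM against 50.2 CPM in WT. The Zfp710 and Sema4b peaks were chosen for a small p in Idh2 R172K minus Idh2 R140Q. Over all tested peaks 25.1% were called higher in Idh2 R172K than in WT.

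Idh2 R172K had calls over the whole genome. In the stretch it was called at 780 peaks (330 higher, 450 lower; 54.9%), beside 53.0% of all tested peaks (25.1% higher, 27.9% lower) and 53.5% of the rest of chromosome 7. Called falls beyond 2-fold numbered 212 (14.9%, all tested peaks 13.2%) and called rises beyond 2-fold 52 (3.66%, all tested peaks 3.63%). The median log2 fold change was -0.07 in the stretch and 0.01 over all tested peaks. With library size scaling the split was 255 higher and 490 lower, and with cyclic loess scaling 353 and 411. By class, 42.6% of the 136 promoter peaks were higher and 16.2% lower, while 18.4% of the 626 intronic peaks were higher and 37.1% lower. Over all tested peaks the same shares were 39.8% and 15.0% of promoter peaks and 22.6% and 30.8% of intronic peaks.

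Several peaks near Idh2 gained accessibility in Idh2 R172K. Those of Sema4b and Zfp710 were chosen for a small p in Idh2 R172K minus Idh2 R140Q. The promoter peak of Sema4b, a membrane semaphorin, at chr7:80197447-80199033 had 83.9, 72.5, 81.5 and 78.9 CPM in Idh2 R172K and 32.6 to 41.9 CPM in Idh2 R140Q, with a difference between the alleles of 1.12 ± 0.06 (SE, adjusted p = 6.44e-18). The intronic Sema4b peak at chr7:80191476-80193093 rose to 119 ± 3.73 CPM from 61.0 ± 2.58 in WT, and the promoter peak of the zinc finger gene Zfp710 at chr7:80024161-80027574 to 79.8 ± 3.71 from 45.6 ± 2.00 CPM (SD, n = 4 each). Neither was called in Idh2 R140Q (67.0 ± 5.97 and 44.3 ± 3.89 CPM). A peak in an intron of Blm at chr7:80467290-80467847 went from 2.27 ± 0.372 to 5.29 ± 0.563 CPM (1.21 ± 0.14). A gain chosen after its value was seen was in an intron of Vps33b, a vesicle sorting gene, at chr7:80276376-80276850, from 0.164 to 0.329 CPM in WT to 2.55 to 4.28 CPM (3.79, adjusted p = 1.93e-14).

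Other peaks of the stretch lost most of their signal in Idh2 R172K. An intronic peak of Igf1r, the receptor for insulin-like growth factor, at chr7:68148242-68148961 held 7.93 to 9.13 CPM in WT, 6.20 to 7.85 in Idh2 R140Q and 0.901 to 1.40 in Idh2 R172K (Idh2 R172K minus Idh2 R140Q -2.55 ± 0.14 SE). Igf1r was also lower in Tet2 knockout (5.70 to 7.15 CPM, -0.38 ± 0.10, adjusted p = 0.023). The peak near Sv2b, a synaptic vesicle protein gene, at chr7:75362413-75363043 fell from 14.0 ± 0.933 to 1.94 ± 0.613 CPM and the one 1059 bp from Mctp2 at chr7:72307925-72308425 from 11.4 ± 0.276 to 2.25 ± 0.209 CPM (SD, n = 4 each). At these sites Idh2 R140Q held 14.0 ± 2.08 and 10.3 ± 0.903 CPM. The largest fall, chosen after the values were seen, was in an intron of Sh3gl3, an endophilin gene, at chr7:82240367-82241184, from 6.14 to 7.36 CPM in WT to 0.0385 to 0.487 CPM (-5.02, adjusted p = 1.37e-18). The Sh3gl3 promoter peak printed above fell from 8.13 ± 0.465 to 3.51 ± 0.578 CPM (-1.17, adjusted p = 4.24e-11). Direct comparison of Idh2 R172K with Idh2 R140Q called 691 peaks of the stretch (277 higher, 414 lower; 48.7%), beside 47.0% of all tested peaks (21.5% higher, 25.5% lower).

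The CpG content of promoters was set beside the Idh2 R172K changes. In the stretch, RefSeq promoter windows inside raised peaks had a median of 21.5 CpG (74 windows), those inside lowered peaks 16 (24 windows) and those inside peaks that were not called 20 (67 windows). Over all promoters in tested peaks the medians were 21, 9 and 21. Across the 165 windows of the stretch the CpG count and the log2 fold change had a Pearson correlation of 0.08 and a Spearman rank correlation of 0.04, a description across windows that share libraries and, in part, peaks.

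Gene groups of the stretch were read against these counts. A list of 35 genes near Idh2 was drawn up by name, not ranked by distance, so it need not be complete. Of these genes 34 had tested peaks, 253 in all. Of the 253 peaks, 80 were higher and 59 lower in Idh2 R172K (54.9%, beside 53.0% of all tested peaks; median 0.08, all peaks 0.01). In Idh2 R140Q 2 were higher (Abhd2 and Hapln3) and 1 lower (Rlbp1). This was 1.19% of the 253, beside 1.13% of the stretch and 0.0153% of all tested peaks. In Tet2 knockout 6 were lower (2.37%, beside 2.32% of all tested peaks). For 21 blood cell, transcription and signalling genes with 448 peaks, among them Mef2a, Klf13, Chd2 and Igf1r, 88 were higher and 151 lower in Idh2 R172K (53.3%; median -0.12). Here 1 was higher (Arrdc4) and 2 lower (Akap13) in Idh2 R140Q (0.67%). In Tet2 knockout 1 was higher and 11 lower (2.68%, beside 3.1% of all tested peaks). The 6 DNA repair and replication genes, including Blm, Polg and Fanci, had 46 peaks with 11 higher and 12 lower in Idh2 R172K (23 of 46 called) and 0 called in the other genotypes. For genes of brain, eye, cartilage or pigment cells, 10 of 12 had peaks (Folh1 and Tyr had none), and of 93 peaks 22 were higher and 22 lower in Idh2 R172K (47.3%). Of the same 93, 1 was lower in Idh2 R140Q (Rlbp1, 1.08%). In Tet2 knockout 5 were higher and 1 lower (6.45%, beside 3.1% of all tested peaks). No group had a call in Idh1 R132H.

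Tet2 knockout and Idh1 R132H were the genotypes with no targeted gene in the stretch. Tet2 knockout was called at 41 peaks (14 higher, 27 lower; 2.89%), beside 3.1% of all tested peaks (0.785% higher, 2.32% lower). The peak with the smallest p was an intergenic peak 58746 bp from Eed, a Polycomb gene, at chr7:90039589-90039856. It held 1.74, 1.15, 1.51 and 1.80 CPM in WT, 0.187, 0.244, 0.270 and 0.413 CPM in Tet2 knockout (-2.43 ± 0.31 SE, adjusted p = 1.95e-06) and 0 to 0.185 CPM in Idh2 R172K (-3.61 ± 0.39). An intronic peak of the proprotein convertase gene Pcsk6 at chr7:65880973-65881692 fell from 3.46 ± 0.363 to 1.96 ± 0.105 CPM, and the promoter peak of Nox4, an NADPH oxidase gene, at chr7:87246433-87246942 rose from 1.04 ± 0.214 to 2.19 ± 0.102 CPM (SD, n = 4 each). Nox4 was not called in Idh2 R172K (1.17 ± 0.211 CPM). The Tet2 knockout count fell to 18 without WT replicate 1 or WT replicate 2, to 22 without Tet2 knockout replicate 1 or 4 and to 21 without replicate 3. Idh1 R132H had no call in the stretch, by edgeR or by DESeq2, beside 0.0274% of all tested peaks (0.00646% higher, 0.021% lower). Its 78 peaks at an unadjusted p below 0.05 (5.49%) compare with 5.07% of all tested peaks.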

How the data were processed

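ATAC-seq counts per peak were used as deposited by the authors: raw counts, whole numbers, for 1 peak set over 20 libraries. The submitters' processing notes name featureCounts and MACS2, next to BWA, SAMtools, Picard and Trim Galore, with mm10. No source used here gives their settings or says whether reads were shifted for the transposase. The 4 columns that join Idh1 with R140Q were taken as Idh2 R140Q. Peaks were named for the RefSeq gene they lie in or the nearest one, so a name marks a neighbour. Counts were tested with edgeR 4.0.16 (TMM scaling, expression filter, robust quasi-likelihood fit, 1 mean per genotype over all 20 libraries), which was tested on simulated data. CPM values come from this scaling and p-values are adjusted over all 123908 tested peaks. Intervals are 95%. Promoter sequences are from RefSeq. Alternatives were DESeq2 1.42.0, other scalings (cyclic loess by limma 3.58.1), no filter, fits of only the 2 genotypes compared, a replicate block, a term for libraries high at Xist and leaving out each library. Named peaks were those called in Idh2 R140Q, the leading shared ones, all Idh2 peaks and the leading peaks of the other comparisons and gene lists. The members and lists were chosen with earlier results of these data known. 1 peak that met a rule outside the stretch is not reported here.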

Additional observations from a re-analysis of the deposited data

Results flagged for a closer look

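In 11 of 175 groups of 4 libraries examined, 1 library stood apart from the other 3. Chance alone flags about 1 in 20 such groups. At the intronic Otud7a peak at 63516034, WT replicate 3 held 1.97 CPM (others 0.943 to 1.10) and Idh1 R132H replicate 3 held 1.22 CPM (0.854 to 0.906). At the Otud7a peak at 63816034, Tet2 knockout replicate 3 held 7.65 CPM (7.16 to 7.24). At Akap13, 75699643, WT replicate 3 held 11.2 CPM (13.0 to 13.4), which is still above every Idh2 mutant library. At Igf1r, 68148242, Idh1 R132H replicate 2 held 6.78 CPM (7.49 to 7.61). At Zfp710, Idh2 R140Q replicate 4 held 38.5 CPM (45.7 to 46.7), and at Nox4 the same library held 2.17 CPM (0.917 to 1.10), as high as Tet2 knockout. At the Idh2 peaks, Tet2 knockout replicate 3 held 0.27 CPM at 80098545 (0.413 to 0.438) and Idh2 R172K replicate 4 held 8.62 CPM at 80122995 (at least 10.7). At the Sema4b promoter, Idh1 R132H replicate 4 held 36.2 CPM (at least 37.8), and at Blm, 80467290, WT replicate 2 held 2.82 CPM (2.05 to 2.10).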

How the results depend on the processing

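The 11 peaks called for both Idh2 alleles numbered 10 to 14 in the fits with another tool, scaling, filter or term, and 10 or 11 of the original 11 were kept in every fit, that with the other pairing of genotypes included (16 peaks; added after seeing the data). Without Idh2 R140Q replicate 2, the count was 18, and the Idh2 R140Q minus Idh1 R132H count 33. Leaving out 1 library gave 12 to 19 calls for Idh2 R140Q, 707 to 793 for Idh2 R172K, 0 for Idh1 R132H and 18 to 53 for Tet2 knockout against WT, 16 to 33 for Idh2 R140Q minus Idh1 R132H, 578 to 680 for Idh2 R172K minus Tet2 knockout, 612 to 700 for Idh2 R172K minus Idh2 R140Q and 10 to 18 for the shared peaks. DESeq2 gave 26 calls for Tet2 knockout. With the replicate block, Tet2 knockout had 80 calls, Idh2 R140Q minus Idh1 R132H 27 and the shared peaks 14. Over all tested peaks, Idh2 R140Q against WT then had 14 higher and 22 lower calls, beside 10 and 9 in the main fit. Deviations from the genotype means correlated at -0.103 to 0.334 between libraries of the same number (median 0.115, 22 of 40 pairs over 0.1) and at -0.312 to 0.165 between others (median -0.0419, 11 of 120 over 0.1), and 15 of 20 libraries correlated best with their own number. The data thus hint at structure by replicate number, but not every pair was over 0.1 and the labels do not say what a number marks. The share of counts, measured instead as the median log2 CPM difference over the stretch, was -0.0579 in Idh2 R172K and -0.00437 in Tet2 knockout, both reversed in sign. For Idh2 R172K the exact permutation test then gave p = 0.0286, the smallest that 4 against 4 libraries allow (adjusted p = 0.114). Without 1 library the share differed from WT by -0.00674 to 0.000316 percentage points in Idh1 R132H, -0.0064 to 0.000657 in Idh2 R140Q, -0.00163 to 0.00542 in Idh2 R172K and -0.00334 to 0.00371 in Tet2 knockout. The cause was not tested. Calls of single peaks in Idh2 R140Q against WT were lost for Rlbp1 (6 fits), Hapln3 (3 fits) and Otud7a at 63821887 (2 fits). They were also lost for Otud7a at 63516034, Gm44812 at 70948282 and Chsy1 (1 fit each). In Idh2 R172K against WT the Homer2 call was lost in 3 fits and the Hapln3 call in 1. In Idh2 R172K minus Tet2 knockout the Rlbp1 call was lost in 4 fits. Sites near 0 CPM rest on few counts, such as 13 over the 4 WT libraries near Fam169b.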
